A study of Rattus norvegicus with 2 samples.

Results

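The cytochrome P450 genes of families 1 to 4 and Por, the gene of their electron donor, were examined in primary rat hepatocytes cultured without and with thyroid hormone. Members were taken by name: a probe set belonged when the first gene symbol given for it was a Cyp symbol of families 1 to 4, or was Por. This took 45 genes of 14015 named on the array, measured by 50 of 31038 probe sets that were not array controls, and 2 of the 50 were for Por. The hepatocytes came from the liver of male Sprague-Dawley (SD) rats and were grown on plates coated with collagen, in a hepatocyte medium with added growth factors. One culture received no T3 and served as the control, and the other was kept for 24 h with 1 nM triiodothyronine (T3), the form of thyroid hormone that binds the nuclear receptors. RNA of each culture was read on 1 Affymetrix Rat Genome 230 2.0 array, so there were 2 arrays, with 1 in each group and no replicates. No difference was tested and no p-value compares the groups; with so few arrays the precision of each value is limited and the spread between cultures unknown. No uncultured liver was analysed here, so the values show which transcripts were detected in culture and not which were lost there. The sources used here do not give the ages of the rats, the time in culture before T3 or the number of animals.

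Cytochromes P450 are heme enzymes of the endoplasmic reticulum that insert an oxygen atom into drugs, steroids, fatty acids and other lipophilic compounds. Families 1 to 3 carry out most oxidative drug metabolism in liver, whereas family 4 mainly hydroxylates fatty acids and eicosanoids at the end of the chain. Each catalytic cycle needs electrons from NADPH, which the flavoprotein encoded by Por passes to all microsomal P450s. Many of the genes are induced by ligands of the aryl hydrocarbon receptor, the constitutive androstane receptor, the pregnane X receptor or PPAR alpha, and several differ between male and female rats under the control of growth hormone. Hepatocytes in culture are known to lose much of their P450 expression, and thyroid hormone is known to maintain Por in rat liver.

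Each probe set has a MAS5 signal, a scaled intensity in arbitrary units. Its detection call (present, marginal or absent) rests on its perfect-match probes being brighter than their mismatch partners. Signals of different probe sets cannot be ranked as transcript levels, because probes differ in brightness. The quotient of T3 over control for the same probe set is read here instead. Sums of marker signals, given further on, compare the arrays over the same probe sets and are weighted to the brightest of them. Of the 50 probe sets, 30 were called present in control and 24 with T3, beside 56.7% and 55.6% of all probe sets. All 24 were present on both arrays, 6 were present in control only, 0 were present with T3 only, and 20 were absent on both. Present on both arrays were thus 48.0% of these probe sets, beside 53.2% of all probe sets, and present on at least 1 array were 60.0% beside 59.1%. Counted as genes, 28 of 45 were detected on at least 1 array and 22 on both. Among all probe sets, 1068 were present in control only and 740 with T3 only.

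Detection differed widely between subfamilies. All 5 probe sets of CYP4F and all 3 of CYP2J were present on both arrays, as were the single probe sets of CYP2E, CYP2S, CYP2T and CYP2U and both of Por. In CYP2C 3 of 6 and in CYP2D 3 of 5 probe sets were present on both arrays. By contrast, 0 of 4 in CYP2A, 1 of 4 in CYP2B, 1 of 4 in CYP3A and 0 of 5 in CYP4A were present on both, and the probe sets of CYP1B and CYP4B were absent on both. These are counts of a few probe sets each, and they were not tested.

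**Figure D1:**
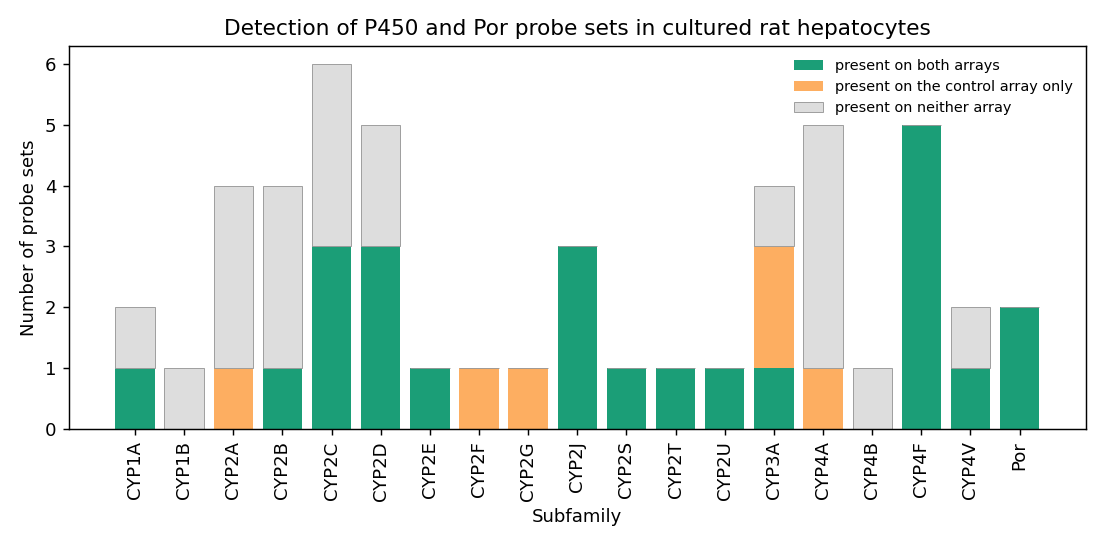
Number of probe sets in each subfamily (vertical axis), coloured by whether they were called present on both arrays, on the control array only or on neither. All 5 CYP4F and all 3 CYP2J probe sets were present on both arrays, while 4 of 5 CYP4A probe sets were present on neither.

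Members were also grouped into lists drawn up by name for each inducing receptor. In the aryl hydrocarbon receptor list 1 of 3 probe sets was present on both arrays (Cyp1a1). In the constitutive androstane receptor list, of Cyp2b2, Cyp2b3 and Cyp2b15, this was 1 of 3 (Cyp2b2). It was 1 of 4 (Cyp3a9) in the pregnane X receptor list and 0 of 5 in the PPAR alpha list. The lists were drawn from subfamilies but not always whole, as Cyp2b21 was left out. Not every gene in them need be induced by the receptor. Of the 4 probe sets for forms that predominate in male rat liver, Cyp2a2, Cyp2c13, Cyp3a2 and Cyp3a18, only Cyp3a18 was detected, and only in control. The female-predominant list held only Cyp2a1 and Cyp2c12, and of its 3 probe sets 1 was detected, also only in control. Its probe set shared by Cyp2a1 and Cyp2a2, absent on both arrays, also reads a gene of the male list. These lists are not complete, so they do not show that sex-dependent forms in general were missing. The best known male form, the testosterone hydroxylase gene Cyp2c11, stands outside the naming rule because its probe set still carries the symbol Cyp2c. That probe set was present on both arrays, with a signal of 45.0 in control and 30.6 with T3, a quotient of 0.681. Its mean signal was 37.1. For all probe sets present on both arrays with mean signals of 35.7 to 75.5, the central 95% of quotients ran from 0.710 to 1.47. Cyp2c11 lay below that range, but its mean signal was near the lower edge of the bin. For mean signals of 2.98 to 35.7 the range was 0.606 to 1.86, and its quotient would lie inside that.

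Over the members as a whole, T3 and control signals were close. The 30 probe sets present on at least 1 array had a median log2 quotient of 0.02, and all 18332 such probe sets had a median of 0.00. For the 24 present on both arrays the median was 0.05, with 14 above 0 and 10 below, beside -0.01 for all 16524. Of all probe sets present on both arrays, 48.6% lay above 0. In 17 of the 24 the signals differed by no more than 1.2-fold (70.8%), as in 78.9% of all probe sets present on both.

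At a threshold of 1.5-fold, with a present call on the brighter array, 3 of the 50 probe sets were higher with T3 and 3 were lower. Of all probe sets, 2.43% were higher and 1.56% lower by this rule, or 3.99% in either direction. The higher ones were Cyp2d4v1 (1 of its 2 probe sets), Cyp2e1 and Cyp2c22, and the lower ones were Cyp2g1, Cyp3a18 and Cyp3a23/3a1. Among probe sets present on both arrays, 3 of 24 members were past 1.5-fold, beside 3.93% of all. The 3 lower ones were all among those present in control only, a class in which 24.4% of all probe sets were past 1.5-fold. With 1 array a group these counts were not tested.

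**Figure D2:**
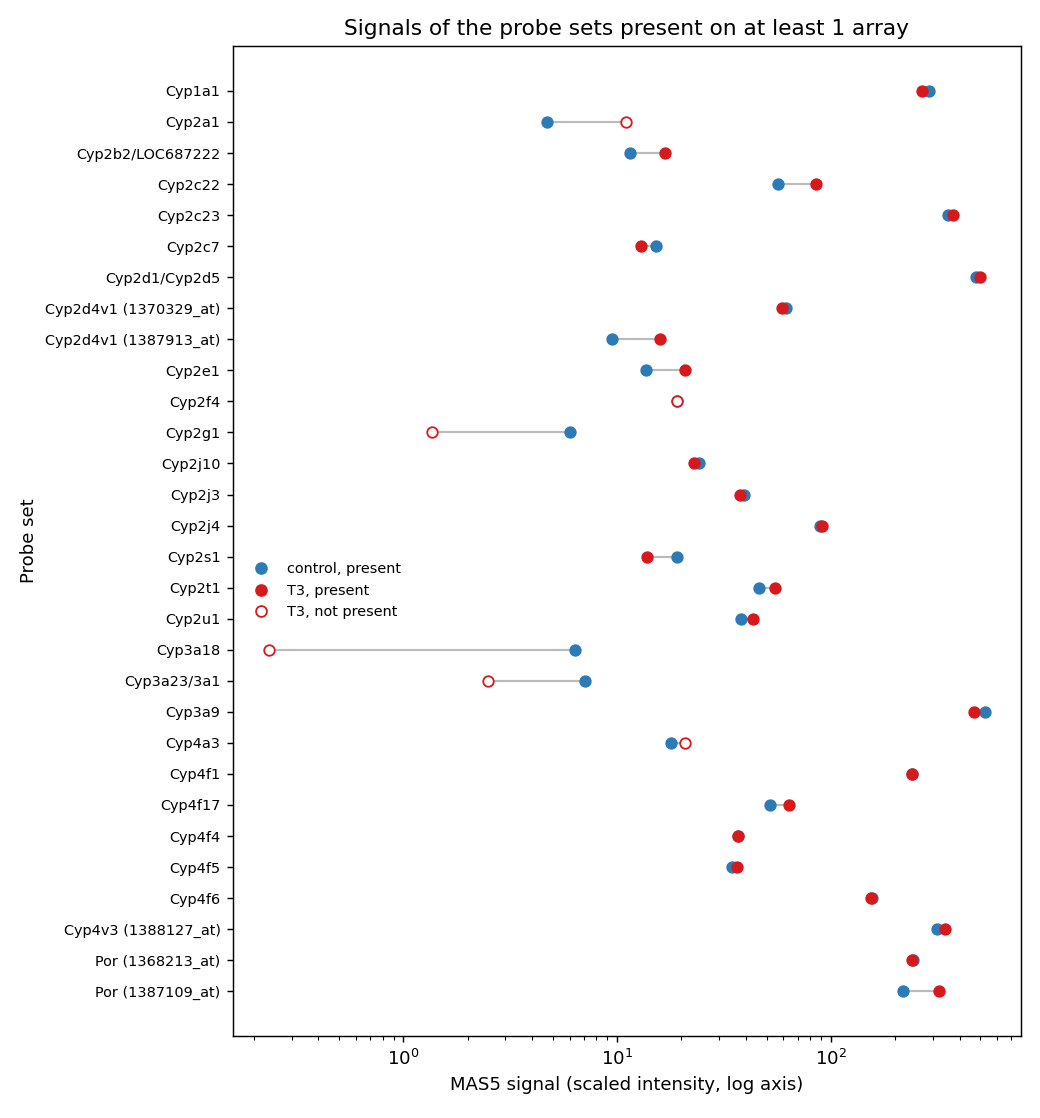
MAS5 signal in control (blue) and with T3 (red) for the 30 probe sets present on at least 1 array, on a log axis; filled points were called present and open points were not. The pairs of points lie close together for most probe sets with signals of about 30 and above, apart from Cyp2c22 and 1 of the Por probe sets.

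Por had probe sets that disagreed. Probe set 1387109_at had a signal of 217 in control and 319 with T3, a quotient of 1.47, and was present on both arrays at a detection p-value of 0.00122. Probe set 1368213_at had 243 and 240, a quotient of 0.987, and was also present on both arrays. The signals of the first are therefore higher with T3 and those of the second nearly equal. Both are bright enough for the spread of quotients to be narrow: among probe sets present on both arrays whose signals averaged 144 to 313 (geometric mean), the central 95% of quotients ran from 0.802 to 1.25. The first Por probe set lay above that range and the second inside it. Neither was past 1.5-fold.

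Among the drug-metabolising P450s of family 2, Cyp2e1, whose enzyme oxidises ethanol and paracetamol, was dim, with signals of 13.7 in control and 20.8 with T3 and a quotient of 1.52. Cyp2c22, a rat liver P450 known to act on retinoic acid, had signals of 56.8 and 85.5 and a log2 quotient of 0.59. In its range of mean signal (35.7 to 75.5) the central 95% of quotients ran from 0.710 to 1.47, so Cyp2c22 lay just above it. Cyp2e1 lay inside its range, which for mean signals of 2.98 to 35.7 ran from 0.606 to 1.86. In that dimmest bin of the array, 9.44% of probe sets were higher by 1.5-fold or more and 4.75% were lower by as much.

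Cyp2d4v1, listed as Cyp2d4 in current annotation, has a probe set on each side of this. Probe set 1387913_at had signals of 9.47 and 15.9, a quotient of 1.68, and probe set 1370329_at had 61.9 and 58.9, a quotient of 0.951. The dimmer one was thus higher with T3 and the brighter one nearly equal. The dimmer one had a detection p-value of 0.0376 on both arrays, and the brighter one had 0.00415 in control and 0.00195 with T3. The probe set shared by Cyp2d1, the debrisoquine hydroxylase of rat, and Cyp2d5 had signals of 477 and 501 and a quotient of 1.05. Cyp2d2 and Cyp2d3 were absent on both arrays.

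In CYP2C, Cyp2c23, an epoxygenase of arachidonic acid best known from rat kidney, had signals of 353 and 374 and a quotient of 1.06. Cyp2c7 was dim at 15.1 and 13.0, a quotient of 0.857. Cyp2c6, Cyp2c12 and Cyp2c13 were absent on both arrays. The subfamily thus holds a near equal bright probe set, a higher one and a dim lower one, and its 3 detected members share no direction. Cyp2c11, outside the rule, was further below control than any of them.

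In CYP2B, which holds the classical phenobarbital-inducible genes, the probe set shared by Cyp2b2 and LOC687222 was present on both arrays with signals of 11.5 and 16.8, a quotient of 1.46. This is inside the central 95% for dim probe sets. Cyp2b3, Cyp2b21 and the probe set labelled Cyp2b15, whose gene number now belongs to Cyp2b12, were absent on both. In CYP2A, whose rat forms hydroxylate testosterone, Cyp2a1 was called present in control at a signal of 4.67 and absent with T3 at a higher signal of 11.0, so no direction can be read from it. Cyp2a2, Cyp2a3a and the probe set shared by Cyp2a1 and Cyp2a2 were absent on both.

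The CYP2J genes, which encode epoxygenases of arachidonic acid, were all near equal. Cyp2j4 had signals of 88.7 and 91.2, Cyp2j3 of 39.1 and 37.4, and Cyp2j10 of 24.1 and 22.8, with quotients between 0.947 and 1.03. Cyp2t1 had signals of 46.2 and 54.7, a quotient of 1.18. Cyp2u1, a hydroxylase of long-chain fatty acids, had 37.8 and 43.4, a quotient of 1.15. Cyp2s1, an epithelial and dioxin-inducible P450, was dim at 19.1 and 13.8, and its quotient of 0.723 was the lowest among the members present on both arrays.

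The olfactory P450 gene Cyp2g1 was present in control at a signal of 5.99 and absent with T3 at 1.36. Measured against the lowest present signal on the T3 array, 1.71, it was 3.51-fold lower. That lowest signal is no firm limit, since absent probe sets on the T3 array had a median signal of 4.32, so the size of such a fold is uncertain. Cyp2f4, known as a naphthalene-oxidising lung P450, was present in control and absent with T3 at nearly the same signal, 19.0 and 19.1.

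In family 3, the main steroid and drug 6-beta hydroxylases, Cyp3a9 was present on both arrays at 525 and 466, a quotient of 0.888. Cyp3a23/3a1, the dexamethasone- and pregnane X receptor-inducible form, was present in control at 7.10 and absent with T3 at 2.49, or 2.85-fold lower by these values. Cyp3a18 was present in control at 6.37 and absent with T3 at 0.235, or 3.73-fold lower against the lowest present T3 signal, 1.71. Neither fold is a firm bound, since absent probe sets on the T3 array had a median signal of 4.32. Both genes were called present at low signals, with detection p-values of 0.00806 and 0.0376. Cyp3a2 was absent on both arrays, at 4.56 and 4.77. Of the 3 detected CYP3A probe sets, only that of Cyp3a9 was present on both arrays, and its quotient lay inside the central 95% for its signal. The other 2 counted as detected only through their control signals, near the level of absent probe sets. No shared direction of the subfamily is read from them.

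In family 1, Cyp1a1, which oxidises polycyclic aromatic hydrocarbons and is the standard target of the aryl hydrocarbon receptor, was present on both arrays at 289 and 267, a quotient of 0.924. Cyp1a2, the liver enzyme of caffeine and arylamine metabolism, was absent on both arrays at 10.6 and 13.5. Cyp1b1 was absent on both at 6.67 and 4.76.

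In family 4 the CYP4F genes, whose enzymes inactivate leukotriene B4 and other eicosanoids, stayed within 1.23-fold of control. Cyp4f1 had signals of 239 and 240, Cyp4f6 of 156 and 154, Cyp4f4 of 36.7 and 36.7, and Cyp4f5 of 34.6 and 36.5. Cyp4f17 was the furthest from control, at 51.6 and 63.4 with a quotient of 1.23. The median log2 quotient of the 5 was 0.00. Cyp4v3, a fatty acid omega-hydroxylase gene, was present at 314 and 342 in probe set 1388127_at, a quotient of 1.09, and absent on both arrays in probe set 1370889_at.

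The CYP4A genes, fatty acid omega-hydroxylases and standard targets of PPAR alpha, were barely detected. Cyp4a3 was present in control at 17.8 and marginal with T3 at 20.8. Both probe sets of Cyp4a8, the one shared by Cyp4a1 and Cyp4a10 and the one shared by Cyp4a2 and Cyp4a3 were absent on both arrays, as was the lung P450 gene Cyp4b1. None of these gives a quotient that can be read.

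**Figure D3:**
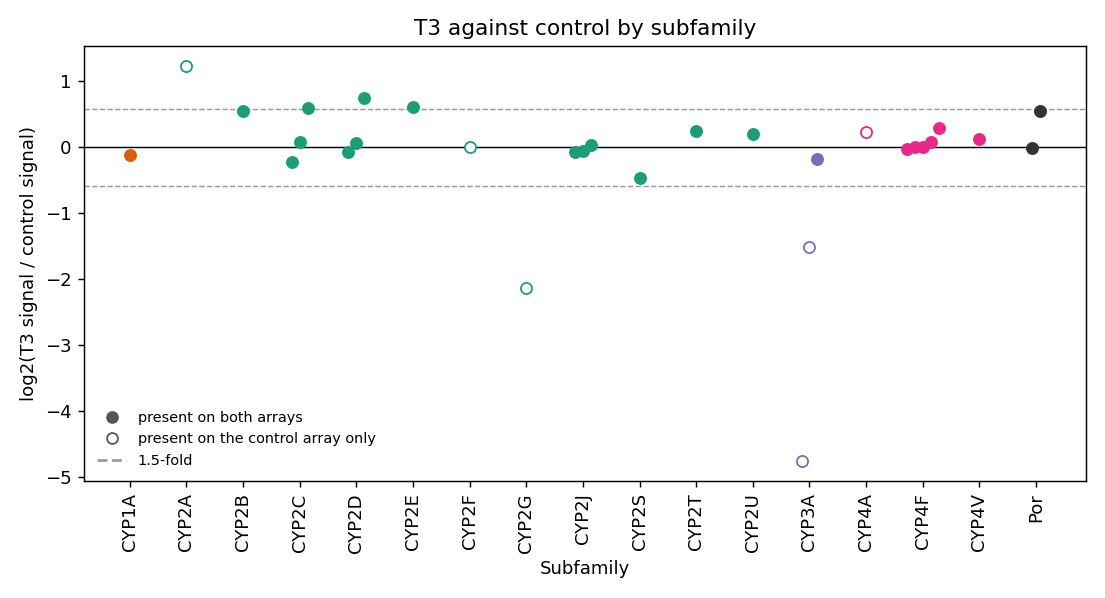
log2 of the T3 signal over the control signal (vertical axis) for each probe set present on at least 1 array, by subfamily; filled points were present on both arrays, open points on the control array only, colours mark families and Por, and dashed lines mark 1.5-fold. The CYP4F and CYP2J points lie near 0, and the points furthest from 0 are open.

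Members far from equality were mostly dim. Of the 9 members with a mean signal of at least 100, 8 were within 1.2-fold, the exception being a Por probe set. Of the 7 members present on both arrays in the dimmest of 5 signal bins, 3 were within 1.2-fold and 2 were higher past 1.5-fold. The 3 lower members, present in control only, were in that signal range or below it. In all, 22 of the 24 members present on both arrays lay inside the central 95% of quotients for probe sets of like signal, and the others, a Por probe set and Cyp2c22, lay above it. Cyp2c11, outside the naming rule, lay below the range of its bin, but near that bin's lower edge and inside the range of the dimmest bin.

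**Figure D4:**
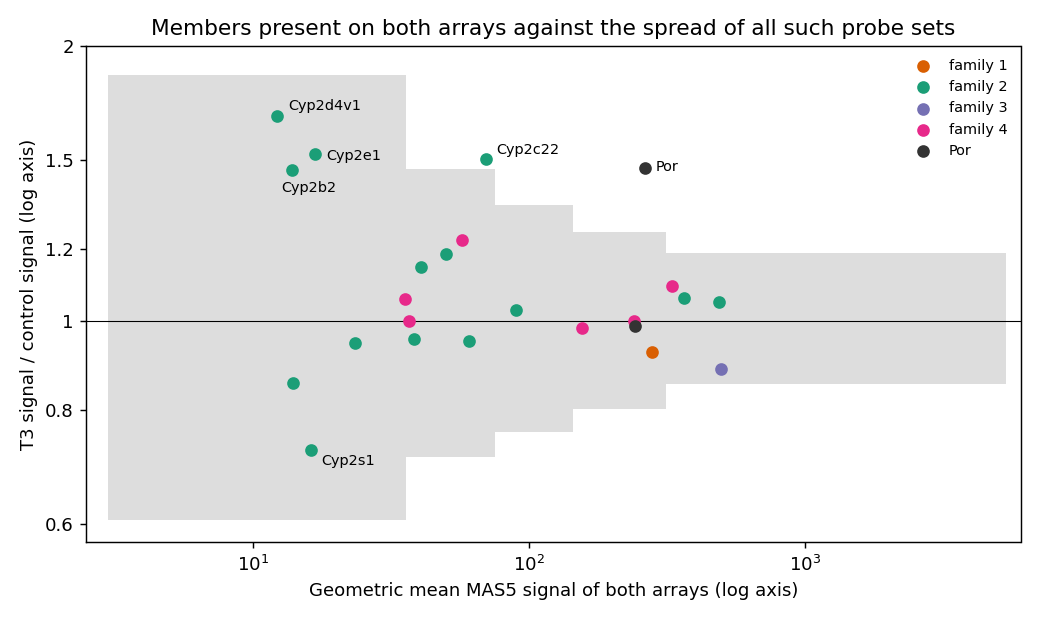
Quotient of T3 over control signal against the geometric mean signal (both log axes) for the 24 members present on both arrays; grey bands hold the central 95% of quotients of every probe set detected on both, split into 5 equal bins by signal. The Por point at 1.47 and the Cyp2c22 point (log2 quotient 0.59) lie above the band.

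The gene starts of the members highest with T3 were searched for AGGTCA, and those holding it are shown. Thyroid hormone receptors and many other nuclear receptors bind pairs of this half-site. Of the members present on both arrays with a quotient of at least 1.4, those of Por, Cyp2e1 and Cyp2c22 held AGGTCA on either strand within 250 bases before and 50 after the gene start, and those of Cyp2b2 and Cyp2d4 held none. Each of the 3 shown holds AGGTCA once, not as a pair. The other probe sets of Por and Cyp2d4v1 had quotients of 0.987 and 0.951. Cyp2e1, Cyp2b2 and the dimmer Cyp2d4v1 probe set lay inside the central 95% of quotients for their signals. The sequences are from RefSeq on build GRCr8 and were chosen with the quotients known. They run 5′ to 3′ on the strand of the gene, with the half-site or its reverse complement TGACCT in capitals, at chr12:26635760-26636059 (minus strand), chr1:205269717-205270016 (plus strand) and chr1:248980718-248981017 (minus strand) in that order.
Por: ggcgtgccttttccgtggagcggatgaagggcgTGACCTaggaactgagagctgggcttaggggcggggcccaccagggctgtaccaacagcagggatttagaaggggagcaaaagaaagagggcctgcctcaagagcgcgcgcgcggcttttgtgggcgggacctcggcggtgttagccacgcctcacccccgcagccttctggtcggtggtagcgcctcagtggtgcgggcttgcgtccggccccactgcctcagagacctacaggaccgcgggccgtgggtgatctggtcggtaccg
Cyp2e1: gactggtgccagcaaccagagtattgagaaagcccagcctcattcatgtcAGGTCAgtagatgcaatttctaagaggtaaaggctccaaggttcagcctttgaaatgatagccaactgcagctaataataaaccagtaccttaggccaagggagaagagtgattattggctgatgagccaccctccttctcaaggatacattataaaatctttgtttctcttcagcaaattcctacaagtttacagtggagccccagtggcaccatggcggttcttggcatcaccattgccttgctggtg
Cyp2c22: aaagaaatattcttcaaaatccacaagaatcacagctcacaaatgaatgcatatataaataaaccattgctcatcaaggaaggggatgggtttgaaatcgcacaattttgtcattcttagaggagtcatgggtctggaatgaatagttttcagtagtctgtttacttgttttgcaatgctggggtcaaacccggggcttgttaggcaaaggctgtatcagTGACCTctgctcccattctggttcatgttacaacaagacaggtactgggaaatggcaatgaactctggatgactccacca
The members' probe sets carry 49 gene numbers, more than the 45 first symbols because some are shared by several genes, and 39 of the 49 have such a sequence in RefSeq. Of these 39, 13 (33.3%) held AGGTCA, beside 16.2% of all 33465 promoters of that length. Besides the 3 shown these were Cyp2u1, at a quotient of 1.15, Cyp2c7 and Cyp2s1, below control, and Cyp3a23/3a1, present in control only and lower. The others were Cyp4a3, marginal with T3, and Cyp1a2, Cyp2b12, Cyp2b21, Cyp3a2 and Cyp4a2, whose probe sets gave no readable quotient. The direct repeat with 4 bases between (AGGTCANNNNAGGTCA) was in 0 of the 39 and in 2 of all promoters. The core GCGTG that the aryl hydrocarbon receptor recognises was in 20.5% of the members' promoters and 29.7% of all. A match is a string of letters and not a bound site, and regulatory elements further from the start were not searched.

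Genes that work with P450s were mostly near equal. Of 7 electron transfer partners with a named probe set, 6 were present on both arrays and 0 were past 1.5-fold. They included Cyb5a, the cytochrome b5 that aids some P450 reactions (1314 and 1289), and the P450-binding protein gene Pgrmc1 (2252 and 2240), and the median log2 quotient was -0.02. All 8 heme synthesis genes were present on both arrays, with a median of -0.03, and 1 was past 1.5-fold. This was Uros, the uroporphyrinogen III synthase gene, in a dim probe set at 7.81 and 23.8, while Alas1, the first and limiting step, had 192 and 187 and the brightest probe set, that of Cpox, had 430 and 413. Of 21 regulators of P450 genes, 16 were detected and 0 were past 1.5-fold, with a median of -0.06. The aryl hydrocarbon receptor gene Ahr had signals of 91.4 and 76.0, and the pregnane X receptor gene Nr1i2 had 91.4 in control and 84.3, marginal, with T3. The constitutive androstane receptor gene Nr1i3 and the PPAR alpha gene Ppara were absent on both arrays. The brightest probe set of this list was that of the hepatic factor Foxa2, at 499 and 463. Of 17 P450 genes of other families 6 were detected, with a median of 0.05. The 1 past 1.5-fold was Cyp27b1, the vitamin D 1-alpha-hydroxylase gene, at 18.4 and 7.65, whereas the brightest, the sterol demethylase Cyp51, had 1136 and 1027, with a quotient of 1.21 in its other probe set.

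The labelled cell type was checked against marker genes. All 11 hepatocyte markers with a named probe set were present on both arrays, among them Alb (3972 and 3449) and Ttr (2232 and 2273), with a median log2 quotient of -0.02. Bile duct markers were detected in 5 of 7 cases, among them Krt19 (1240 and 1079), with summed signals of 3213 in control and 2810 with T3 and a median of -0.20. Stellate and fibroblast markers were detected in 7 of 9, with summed signals of 2897 and 2609 and a median of -0.15. Vim (1621 and 1418) and Tagln (1096 and 986) make up most of that sum and were below control. By contrast, Acta2, Des and Col3a1 had quotients of 1.21 to 1.22, and Col1a2 and Pdgfrb were absent. Among probe sets present on both arrays with mean signals of 313 to 5310, the central 95% of quotients ran from 0.854 to 1.19. Krt7, Krt19, Epcam, Cldn4, Vim, Tagln and Alb all lay inside it, at quotients of 0.860 to 0.906. Of 9 leukocyte markers with a named probe set 1 was detected, and of 6 endothelial markers 2 were, and Ptprc, Cd68, Pecam1 and Kdr were absent on both arrays. Past 1.5-fold were the hepatocyte gene G6pc1 (34.3 and 56.4), the stellate cell gene Lrat (13.8 and 7.32), the macrophage gene Cd163 (4.79 and 7.64) and the endothelial gene Egfl7 (31.0 and 47.8). Whether the bile duct and stellate marker signals came from other cells or from the hepatocytes was not tested. Any part of other cells in the P450 values was not tested either. A different number of cells of a type and a different amount of RNA per cell cannot be told apart.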

How the data were processed

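Total RNA from 1 control and 1 T3-treated rat hepatocyte culture was measured on Affymetrix arrays. Per the file headers, the authors deposited a MAS5 signal intensity, a detection p-value and a detection call (a letter, classed here as other) for each probe set and array. The authors also deposited the ratio of T3 over control signal, which equalled the quotient of the signals within rounding error. Affymetrix Expression Console is the software named in the submitters' processing notes; version, scaling target and genome build: not given in the sources used here. The trimmed mean was 99.6 on each array, so the arrays had been scaled alike before deposit. No second scaling was applied. The table holds 31095 probe sets, from which 57 array controls were removed. Present calls had detection p-values of at most 0.0461.

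The log2 quotient was computed without a pseudocount, and members were counted past 1.5-fold when present on the brighter array. Where only the brighter array detected a probe set, its fold was taken against the dimmer array's own value or that array's lowest present signal, whichever was larger. Such a fold is no firm bound. Mean signals are geometric, and lists use the brightest detected probe set per gene. Symbols are those of the files, updated by gene number through RefSeq where stated (assembly GRCr8). Near-identical P450 genes may share probes. All members present on at least 1 array are named, and, in the other lists, at least the genes past 1.5-fold and the brightest. Others were named as background or as markers after their values were seen. Members and lists were chosen with earlier results of these data known. Steps across all probe sets were tested on simulated data, with 2-fold changes set only in probe sets with mean signals above 100. The simulation used no detection filter. It does not cover the members past 1.5-fold, which all had mean signals below 100. Python 3.11.15, pandas 2.3.3, numpy 2.4.6 and statsmodels 0.14.6 were used.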

Additional observations from a re-analysis of the deposited data

How the results depend on the processing

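No paired analysis was possible because each group has 1 array. Of the 50 members, 3 higher and 3 lower past 1.5-fold became 0 and 0 with a pseudocount of 16, and 11 and 8 without a detection filter; these settings act on dim probe sets by construction. At 2-fold 0 were higher, and with detection required on both arrays 0 were lower, since the 3 lower ones were present in control only. Cyp2e1 fell below 1.5-fold after quantile normalization (log2 quotient 0.51) and loess (0.55), which left 2 higher members. Por probe set 1387109_at had log2 quotients between 0.53 and 0.57 under all scalings and the pseudocount. Members detected numbered 21 in control and 20 with T3 at a detection p-value of at most 0.01, beside 30 and 24 by the deposited calls. The median log2 quotient of detected members stayed between 0.01 and 0.05 under every alternative run. Of 30 named probe sets, signs turned in 2 with quantile normalization (Cyp2f4 and Cyp4f1), 1 with loess (Cyp2f4) and 1 with median centring (Cyp4f4), all within 0.1 of 0 on the log2 scale. Updated symbols, which add Cyp2c11, were applied to the fold counts and the median after seeing the data and gave 3 higher and 3 lower.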

Other observations

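Among the members absent on both arrays, quotients were large in both directions although no transcript was called detected. The female-specific Cyp2c12 had signals of 0.502 in control and 6.93 with T3, a quotient of 13.8. The probe set shared by Cyp4a2 and Cyp4a3 had 0.183 and 3.17, a quotient of 17.3, and Cyp2a2 had 3.42 and 0.974, a quotient of 0.285. The probe sets of Cyp4a8 gave 2.33 and 0.582. These values show how far quotients of absent probe sets spread, and none is read as a difference.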
